A study of Arabidopsis thaliana with 12 samples.

Results

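The interaction of a signalling peptide with a block of protein synthesis was measured in shoots of Arabidopsis thaliana seedlings: for each gene, the response to EPFL6 in the presence of cycloheximide minus the response to EPFL6 without it. Of 26702 listed genes, the 23225 with a value of at least 10 in 3 or more of the 12 libraries entered the comparison, and the other 3477 did not. The third-highest value was 10.11 in the lowest gene that entered and 9.61 in the highest that did not. The filter uses abundance in any 3 libraries, so a gene can enter through 1 group alone. Of the genes that entered, 257 reached a value of 10 in exactly 3 libraries.

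All libraries came from 1 genotype, clv3 epfl1 epfl2 epfl4 epfl6, at 3 days post germination. Every group, controls included, therefore carries mutations in CLV3 and in 4 genes of the EPFL family, one of which encodes the endogenous EPFL6. The groups were CHX plus EPFL6, CHX alone, EPFL6 alone and mock, with 3 replicates of 10 seedlings each, so replicates are separate pools of seedlings. Seedlings stood in 1 ml of liquid medium, and cycloheximide (CHX) was given at 10 µM for 10 minutes before the peptide. The sample labels give EPFL6 as 10 µM, whereas the protocol in the labels describes 8.7 µl of a solution of that strength added to the medium, and mock seedlings received buffer. The time from peptide to harvest is not in the labels.

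EPFL peptides are small secreted cysteine-rich ligands that bind receptor kinases of the ERECTA family and signal through a MAP kinase cascade. In the shoot apex this pathway restrains the stem cell domain and acts in parallel with the CLV3 peptide, which limits the stem cell factor WUSCHEL. Cycloheximide stops ribosomes during elongation. Transcripts that change under it do so without newly made proteins, and it also stabilises many short-lived transcripts and can deplete short-lived repressors.

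Levels are normalised read counts, the reads of a gene divided by 1 size factor per library. They are not per length, so they are compared within a gene. Library depth, in units of 1e6 reads, ran from 71.3 to 106.6 in the 6 libraries with CHX and from 40.2 to 59.4 in the 6 without, and the first principal component, which took 91.2% of the variance, separated the libraries by CHX. CHX alone passed the threshold of adjusted p under 0.05 against mock in 79.2% of genes (40.9% higher, 38.3% lower; 80.3% at the same unadjusted p). The labels call the tissue shoot, but all 12 root markers had reads in every group. Their summed level was 3002 to 3510 in CHX plus EPFL6, 3601 to 4087 in CHX, 10030.2 to 11519 in EPFL6 and 8384 to 10945 in mock. The summed level of 5 shoot markers was 238885 to 372199 in CHX plus EPFL6, 218400.0 to 307370.0 in CHX, 384520.0 to 689443 in EPFL6 and 375535 to 727765 in mock. None of the 12 root markers passed the interaction threshold in limma or edgeR, and their part in the results was not tested. At an unadjusted p under 0.05 there were 3, against 19.2% of all genes tested. DESeq2 called 2, and limma called 1 without CHX plus EPFL6 replicate 2. In samples of many cell types, fewer cells of a type and less RNA per cell cannot be told apart.

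EPFL6 lowered far more genes under the block than without it. The interaction passed the threshold, an adjusted p under 0.05 from limma over all genes tested, in 349 genes, 1.5% of those tested. With 1 library left out this number ran from 86, without mock replicate 1, to 975, without CHX replicate 1. In 264 of them the interaction term was below 0 (1.14% of genes tested), meaning that EPFL6 lowered the transcript more, or raised it less, with CHX than without. In 85 it was above 0 (0.366%). The lower group had the larger terms: 145 of its genes reached 2-fold, 55 reached 4-fold and 25 reached 8-fold, with a median of -1.12 on the log2 scale. In the higher group 8 genes reached 2-fold and 1 reached 8-fold, with a median of 0.58.

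The 2 EPFL6 changes that make up this term were of unequal extent. With CHX, EPFL6 moved 3140 genes past the threshold (13.5%), of which 1367 were higher (5.89%) and 1773 lower (7.63%). Without CHX it moved 4 genes (0.0172%), all lower: CLV3, MCT2, TEL2 and CYP82C2. edgeR called 2 there, and DESeq2 10 higher and 21 lower. At an unadjusted p under 0.05 the EPFL6 change without CHX took in 708 genes (3.05%), fewer than the 1161 that chance alone gives at that p, so single directions without CHX rest on thin evidence except in those 4. The EPFL6 change with CHX took in 7282 genes (31.4%) and the interaction 4464 genes (19.2%) at the same unadjusted p. Single libraries set these numbers in part: with CHX, EPFL6 raised 616 and lowered 1082 genes without CHX replicate 2, 314 and 731 without CHX replicate 3, 521 and 878 without CHX plus EPFL6 replicate 2, and 419 and 800 without CHX plus EPFL6 replicate 3. Without CHX plus EPFL6 replicate 1 it raised 835. Without CHX it lowered 1 gene when EPFL6 replicate 2 was left out, and 2 when CHX replicate 3 or CHX plus EPFL6 replicate 2 was, since all groups share 1 estimate of the spread. The response with CHX compares different libraries from the response without it, and the interaction uses all 12.

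Each gene past the interaction threshold was placed by its 2 EPFL6 changes, using unadjusted limma p under 0.05 for each. This placing is a description, since the interaction that chose the genes is the difference of the same 2 changes. In 276 genes EPFL6 changed the transcript with CHX and did not pass without it, the genes freed by the block: 201 lower and 75 higher. In 54 genes both changes passed and ran in opposite directions: 44 were lowered by EPFL6 under CHX and raised without it, and 10 were the other way round. In 18 both passed in the same direction, and all 18 were lowered more strongly with CHX. A single gene passed without CHX and not with it, and none passed in the same direction with a weaker change under CHX, by limma, edgeR or DESeq2. Over all genes tested, both changes passed in opposite directions in 117 genes (0.504%) and in the same direction in 139 (0.598%). Leaving out mock replicate 1 gave 54 freed and 19 reversed genes, leaving out EPFL6 replicate 2 gave 9 strengthened ones, and leaving out CHX replicate 1 gave 843 freed and 108 reversed. With adjusted p in place of unadjusted p, the 349 genes divide into 338 freed, 3 strengthened, 1 reversed and 7 that pass neither.

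**Figure D1:**
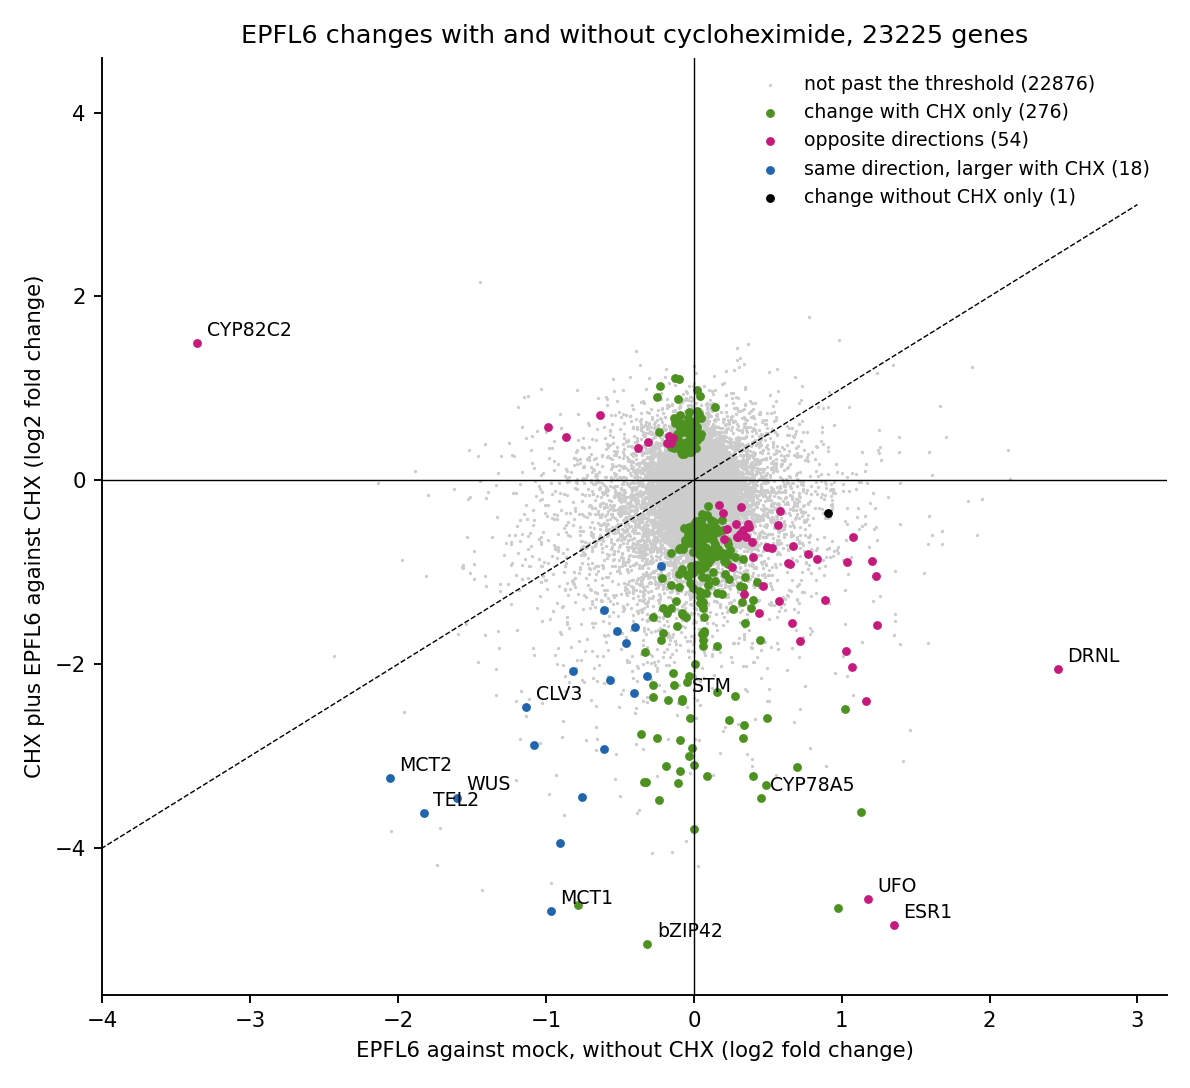
Each point is a gene, placed by its log2 fold change for EPFL6 against mock without CHX (horizontal axis) and for CHX plus EPFL6 against CHX (vertical axis). Coloured points are the 349 genes past the interaction threshold, and the dashed line marks equal changes. Most coloured points lie near the vertical axis, below 0, ESR1, UFO and DRNL lie at the lower right, and CYP82C2 lies alone at the upper left.

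ESR1 and UFO, genes that act in the start of new organs and flowers, had the 2 largest interaction terms, and DRNL was reversed in the same way. ESR1, also called DORNRÖSCHEN, an AP2-type transcription factor of shoot regeneration and cotyledon formation, had 31.9, 33.2 and 14.6 normalised reads in CHX plus EPFL6 against 752, 772 and 712 in CHX. Without CHX it had 159, 142 and 181 in EPFL6 against 59.3, 64.0 and 63.2 in mock. The libraries of neither pair overlap, and they are ordered in opposite ways: lowest of all with CHX plus EPFL6, and higher with EPFL6 than in mock. The interaction term was -6.20 ± 0.36 on the log2 scale (limma estimate ± SE, adjusted p = 7.3e-05). It combined a change of -4.84 ± 0.25 with CHX and one of 1.35 ± 0.25 without, which by itself had an adjusted p of 0.335. CHX by itself set ESR1 at 745 ± 30.8, against 62.2 ± 2.51 in mock (SD, n = 3 each).

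DRNL, the close relative of ESR1 that marks the founder cells of leaves and floral organs, had 18.9, 28.0 and 17.7 in CHX plus EPFL6 against 69.0, 136 and 79.2 in CHX. It had 44.5, 42.5 and 46.4 in EPFL6 against 13.8, 6.49 and 4.08 in mock. Again neither pair overlaps and the order turns round. The interaction term was -4.51 ± 0.53 (adjusted p = 0.00306), and the change without CHX was 2.46 ± 0.38 with an adjusted p of 0.14.

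UFO, an F-box protein that works with LEAFY in flowers, fell almost to nothing: 1.18, 1.75 and 5.20 in CHX plus EPFL6 against 85.6, 92.6 and 59.0 in CHX. Without CHX it had 126, 128 and 192 in EPFL6 against 71.0, 62.2 and 59.1 in mock. CHX alone did not move UFO past the threshold (log2 change 0.28 ± 0.35), whereas it raised ESR1 and DRNL (3.56 ± 0.25 and 3.47 ± 0.38). The interaction term was -5.74 ± 0.50 (adjusted p = 0.000682), and the change without CHX, 1.18 ± 0.35, had an adjusted p of 1. All 3 genes passed the interaction threshold with each single library left out.

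The 300 bases before the annotated start of these 3 genes, and of the gene with the largest term in the other direction, are shown because they are the stretches from which transcripts that move in opposite ways start. They are from the RefSeq TAIR10.1 genome, written on the strand of the gene. Capitals mark matches, on either strand, to 5 short words chosen after the values were seen: TTGAC (the core of the W-box), CACGTG (the G-box), TGTCTC and TGTCGG (auxin response elements) and TTAATGG (a word bound by WUSCHEL).
ESR1, chr1:4429418-4429717, plus strand: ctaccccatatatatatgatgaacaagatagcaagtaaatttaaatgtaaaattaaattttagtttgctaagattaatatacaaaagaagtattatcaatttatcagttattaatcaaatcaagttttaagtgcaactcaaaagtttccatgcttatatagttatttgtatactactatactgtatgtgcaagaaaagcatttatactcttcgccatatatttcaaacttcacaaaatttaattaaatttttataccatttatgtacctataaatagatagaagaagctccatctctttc
DRNL, chr1:8715379-8715678, minus strand: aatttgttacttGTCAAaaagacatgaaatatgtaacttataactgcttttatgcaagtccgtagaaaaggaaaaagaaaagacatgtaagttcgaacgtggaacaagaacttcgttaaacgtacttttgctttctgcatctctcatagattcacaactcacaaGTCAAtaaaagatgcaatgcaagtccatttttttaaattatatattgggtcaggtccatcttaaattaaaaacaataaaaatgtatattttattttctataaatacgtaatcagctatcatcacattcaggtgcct
UFO, chr1:11035692-11035991, plus strand: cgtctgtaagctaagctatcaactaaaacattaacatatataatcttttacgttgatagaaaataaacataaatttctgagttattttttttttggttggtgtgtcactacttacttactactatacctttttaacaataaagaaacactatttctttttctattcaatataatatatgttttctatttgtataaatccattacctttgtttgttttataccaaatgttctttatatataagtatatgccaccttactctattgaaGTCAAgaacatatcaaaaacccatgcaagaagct
CYP82C2, chr4:15462050-15462349, plus strand: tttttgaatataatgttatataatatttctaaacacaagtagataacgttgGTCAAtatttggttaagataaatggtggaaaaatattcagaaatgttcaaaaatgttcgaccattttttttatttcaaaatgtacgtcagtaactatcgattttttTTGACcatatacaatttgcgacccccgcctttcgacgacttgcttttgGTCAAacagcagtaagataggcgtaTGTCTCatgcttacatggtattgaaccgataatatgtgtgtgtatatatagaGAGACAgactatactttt

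The most frequent of the words, TTGAC, occurred in 47.3% of the promoters of the 264 lower genes and 44.7% of the 85 higher ones, against 50.8% of the 23094 promoters of genes tested that could be read. TGTCTC occurred in 14% and 14.1%, against 13%. None of the 5 words occurred in the ESR1 stretch, 2 matches occurred in DRNL, 1 in UFO and 5 in CYP82C2. A match here is a description of letters and not of binding.

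EXPA12 and XTH17 were also reversed with lower terms. EXPA12, an expansin that loosens walls, had 2205, 1319 and 1839 in CHX plus EPFL6 against 5327, 6509.9 and 5869 in CHX. It had 50.9, 37.3 and 38.1 in EPFL6 against 24.4, 25.0 and 25.5 in mock. Neither pair overlaps, and the interaction term was -2.47 ± 0.25 (adjusted p = 0.00131). XTH17, which cuts and rejoins xyloglucan, had 4949, 5233 and 5780.2 in CHX plus EPFL6 against 12621, 16139 and 18453 in CHX. It had 610.2, 626 and 732 in EPFL6 against 475, 339 and 437 in mock, with a term of -2.21 ± 0.22 (adjusted p = 0.00105). Both genes stood in CHX at a level far above mock, by 7.82 ± 0.18 and 5.23 ± 0.15 on the log2 scale. Their EPFL6 changes without CHX had adjusted limma p of 0.787 and 0.681.

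CYP78A7, a cytochrome P450 of organ growth, had 55.5, 69.0 and 69.7 in CHX plus EPFL6 against 173, 202 and 160.0 in CHX. Without CHX its libraries overlap, with 201, 207 and 322 in EPFL6 against 156, 166 and 206 in mock, so the opposite direction is weak here (0.44 ± 0.19, adjusted p = 1) although the interaction passed (-1.89 ± 0.28, adjusted p = 0.0117). AT5G38700, annotated as a cotton fiber protein, and AT2G24285, a RING finger protein, had terms of -2.19 ± 0.21 and -2.82 ± 0.51. The direction of AT2G24285 without CHX rests on 14 reads in EPFL6 and 4 in mock over each whole group. Its interaction did not pass in 8 of 22 alternatives. AT2G06660, annotated as a pseudogene, had 3 reads in EPFL6 and 0 in mock over each whole group, too few for a fold without CHX, and its interaction did not pass in 14 of 22 alternatives. Of the 44 genes, 14 passed with each single library left out.

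**Figure D2:**
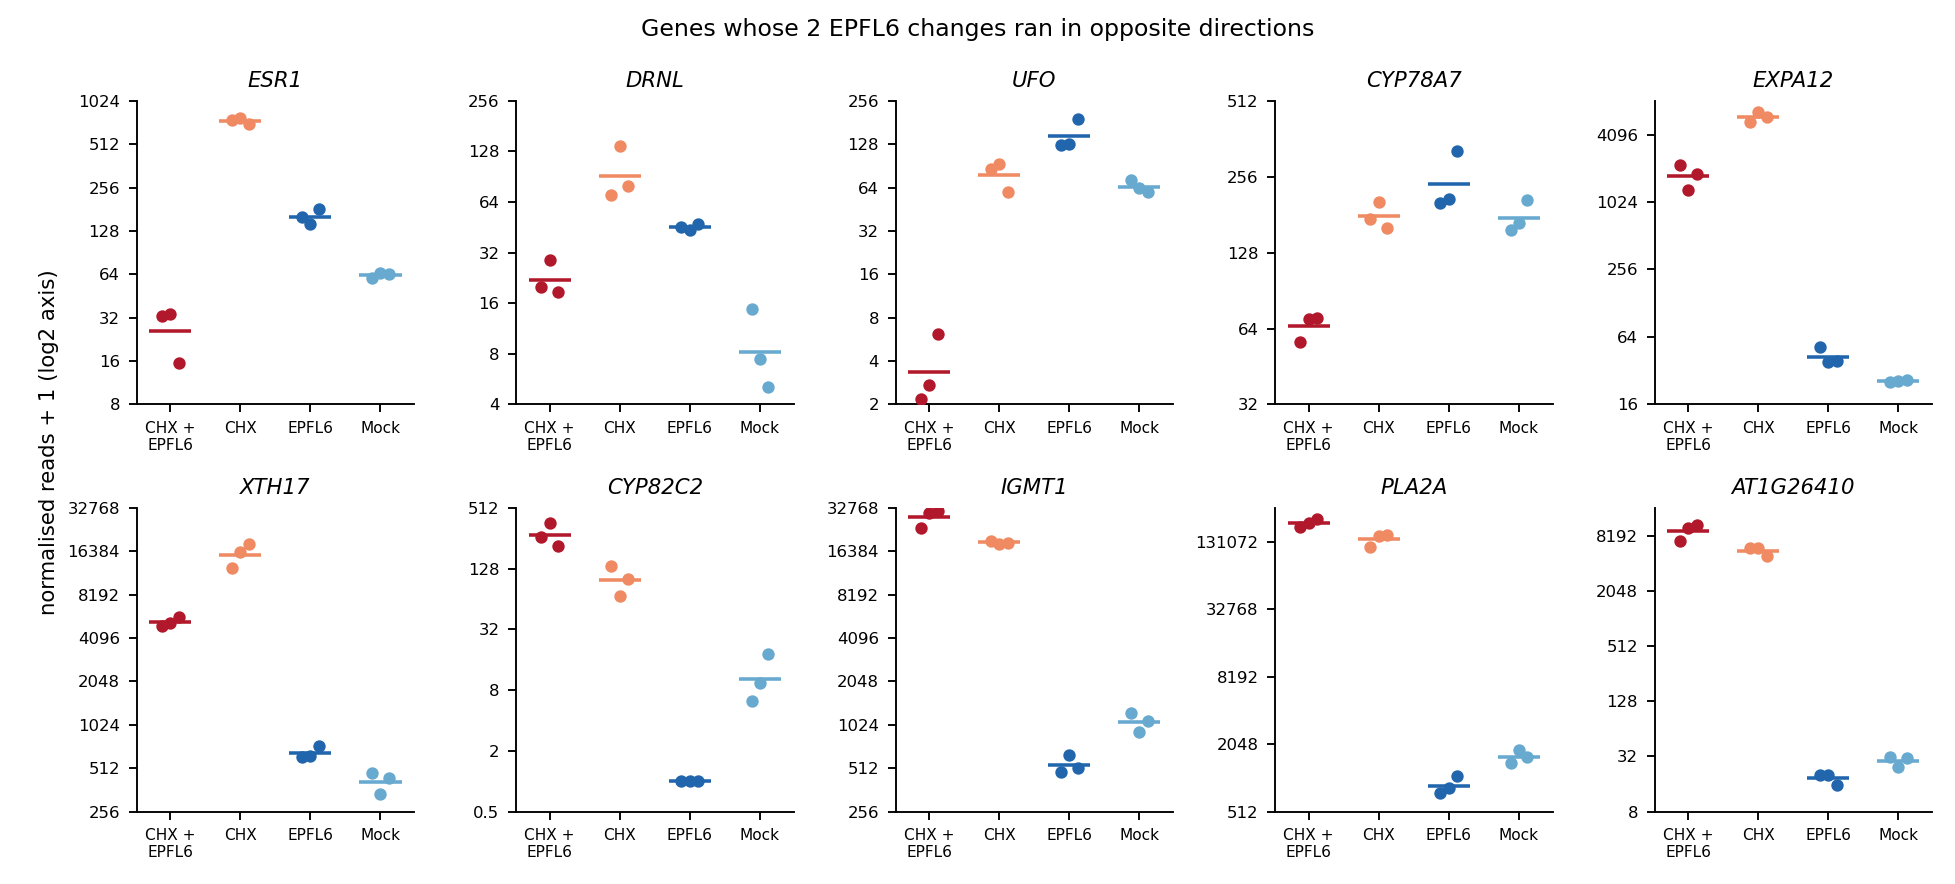
Normalised reads plus 1 (log2 axis) in each library for 10 genes whose EPFL6 changes with and without CHX had opposite directions. Points are libraries, and lines are means of the log2 values. From ESR1 to XTH17, CHX plus EPFL6 lies below CHX while EPFL6 lies above mock (overlapping it in CYP78A7), and from CYP82C2 to AT1G26410 the order is turned round.

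In the other direction, 10 genes were raised by EPFL6 under CHX and lowered without it. CYP82C2, a P450 of the indole carbonyl nitrile pathway, had 263, 366 and 216 in CHX plus EPFL6 against 136, 67.1 and 99.4 in CHX. In EPFL6 it had 0 reads in all 3 libraries, against 5.30, 8.35 and 17.3 in mock. With the EPFL6 group set at a floor of 3 reads over the group, CYP82C2 was at least 10.0-fold lower in EPFL6 than in mock. The ratio of the 2 EPFL6 changes was then at least 28.0-fold. Both bounds cover counting error of the EPFL6 group only. They take the other group means as exact, although mock had 31 reads in all. The fitted term of 4.86 ± 0.54 (adjusted p = 0.00234) depends on the pseudocount and ran from 2.57 with a pseudocount of 8 to 7.88 in edgeR. It is the 1 gene of the 54 in which both EPFL6 changes passed by adjusted p, at 0.0297 with CHX and 0.0254 without.

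IGMT1, a methyltransferase of indole glucosinolates, had 23728, 30499 and 31217 in CHX plus EPFL6 against 19394, 18465 and 18835 in CHX. It had 482, 635 and 511 in EPFL6 against 1245, 908 and 1082 in mock. The term was 1.57 ± 0.20 (adjusted p = 0.00487), and the libraries of neither pair overlap. PLA2A, a lipid acyl hydrolase induced by pathogens, had 176433, 191146 and 210665 in CHX plus EPFL6 against 118786, 148918 and 150951 in CHX. Its levels without CHX were 746, 836 and 1056 in EPFL6 against 1389.7, 1810.1 and 1581 in mock, with a term of 1.33 ± 0.21 (adjusted p = 0.0171). Neither EPFL6 change of PLA2A passed by adjusted limma p (0.0599 with CHX, 0.23 without), nor did that of IGMT1 without CHX (0.0961). The remaining named genes of this direction had terms from 1.35 ± 0.25 for AT1G26410, a FAD-binding berberine family protein, to 0.60 ± 0.07 for AT1G08800, a myosin-binding protein. They include PTR6, a member of the major facilitator superfamily (0.73 ± 0.11), AT4G15610 of unknown function (0.73 ± 0.12) and ANT1, a transporter of aromatic and neutral amino acids (0.65 ± 0.10). None of these remaining genes passed without CHX by adjusted limma p. There ANT1 and AT1G08800 changed by only -0.17 ± 0.07 and -0.14 ± 0.05. The interactions of AT1G26410 and AT4G15610 did not pass in 10 and 7 of 23 alternatives. ANT1 overlaps UBP13 on the opposite strand, and the strand setting of the counting is not given in the sources used here.

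The 201 genes freed in the lower direction included regulators of the shoot meristem. STM, the KNOX homeobox factor that keeps meristem cells undifferentiated, had 68.5, 141 and 98.8 in CHX plus EPFL6 against 546, 576 and 441 in CHX. It had 833, 943 and 1108 in EPFL6 against 1056, 993 and 980.4 in mock. The first pair stands apart and the second overlaps. The interaction term was -2.30 ± 0.31 (adjusted p = 0.00693), and the change without CHX was -0.08 ± 0.22, with a 95% interval of -0.56 to 0.40.

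BLH8, a BELL homeobox protein that pairs with KNOX factors, was lowered under CHX by a like amount. It had 63.8, 76.9 and 70.7 in CHX plus EPFL6 against 460.0, 454 and 375 in CHX, and 460.2, 501 and 587 in EPFL6 against 502, 577 and 490.2 in mock. The term was -2.57 ± 0.18 (adjusted p = 0.000138), and the interval of the change without CHX was -0.30 to 0.25. CHX plus EPFL6 lay far below the other groups. CHX lay below mock and just below EPFL6 (460.0 against 460.2 at the nearest), and EPFL6 and mock overlapped. CUC1, a NAC factor of organ boundaries, differed in that CHX raised it: it had 152, 111 and 137 in CHX plus EPFL6 against 316, 413 and 377 in CHX, and 150.0, 167 and 177 in EPFL6 against 164, 186 and 168 in mock. EPFL6 thus brought it to 134 ± 20.9 under CHX, below the 173 ± 11.9 of mock (SD, n = 3 each), with a term of -1.39 ± 0.20 (adjusted p = 0.011).

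CYP78A5, known as KLUH, a P450 that prolongs organ growth, had 31.9, 56.8 and 45.7 in CHX plus EPFL6 against 540.1, 527 and 413 in CHX. It had 987, 1178 and 1614 in EPFL6 against 894, 1022 and 799 in mock. The term of -3.91 ± 0.32 (adjusted p = 0.000429) stands beside that of -1.89 in its relative CYP78A7, a difference that was not tested, and the other 4 members of the CYP78A family tested did not pass. bZIP42, a basic leucine zipper factor, had 2.36, 6.99 and 3.12 in CHX plus EPFL6 against 138, 145 and 196 in CHX, with 14, 15.6 and 12.4 in EPFL6 against 15.9, 16.7 and 20.4 in mock. Its term was -4.74 ± 0.43 (adjusted p = 0.000743). AT5G59305, a CLE-like peptide gene, had a term of -3.84 ± 0.53 (adjusted p = 0.00883). Without CHX its levels were 15.3, 25.2 and 28.8 in EPFL6 against 22.2, 53.8 and 49.9 in mock. That change was -0.78 ± 0.38, with a 95% interval of -1.62 to 0.05, so a fall without CHX is not excluded. MYB95, a MYB factor whose locus overlaps 2 other listed genes, had a term of -3.62 ± 0.70, with CHX libraries at 311, 255 and 835. Its interaction did not pass in 10 of 23 alternatives.

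The 2 largest terms of this class rest on genes near the floor without CHX. AT2G06045, annotated as a pseudogene, had 21.3, 5.24 and 18.7 in CHX plus EPFL6 against 221, 260.4 and 756 in CHX, and 4 reads in EPFL6 and 0 in mock over each whole group. AT5G15660, an F-box gene, passed in 5 of the 22 alternatives that could test it. In all, 10 of the 349 genes had a group with 0 reads, and in 7 a value of 10 was reached in CHX alone. Those 7 entered the comparison only through the group in which they were high, so their terms are tied to the filter.

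A block of neighbouring B3-domain factors of the REM family on chromosome 4 moved together under CHX. From REM1 to AT4G31640 (chr4:15317499-15329791 in TAIR10.1), 5 consecutive genes tested passed with lower terms, the longest run of neighbours among 7 runs that held 17 genes in all. REM1, which is expressed in reproductive meristems, had 131, 126 and 92.5 in CHX plus EPFL6 against 770.1, 914 and 761 in CHX, and 768, 876 and 938 in EPFL6 against 938, 1108 and 1018 in mock. Both pairs of REM1 stand apart, the second by less than 1 normalised read. AT4G31630 had 7.09, 8.74 and 10.4 in CHX plus EPFL6 against 94.8, 92.6 and 80.0 in CHX, and 50.9, 48.6 and 68.0 in EPFL6 against 49.8, 64.0 and 43.8 in mock. Their terms were -2.56 ± 0.19 (adjusted p = 0.000263) and -3.31 ± 0.30 (adjusted p = 0.000743).

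The terms of AT4G31620, AT4G31640 and AT4G31615 were -2.92 ± 0.27, -3.25 ± 0.34 and -2.73 ± 0.33, and all 5 genes passed with each library left out. The next gene, AT4G31650, had a term of -0.47 ± 0.20 and did not pass (adjusted p = 0.23). REM1 and AT4G31615 overlap, and reads of relatives this close may be shared by the counting, so the 5 are not independent of each other. GRF2, a growth-regulating factor, and ANT, an AP2-type factor of organ size, formed another pair of neighbours, with terms of -0.87 ± 0.16 and -1.12 ± 0.22 that did not pass in 10 and 12 of 23 alternatives.

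Of 21 auxin synthesis and transport genes tested, 3 passed with lower terms, against 1.14% of all genes tested, and 1 passed without mock replicate 1. The enzyme genes YUC4 and TAA1 were among the 3, both placed as freed. YUC4, a flavin monooxygenase of the last step, had 33.1, 78.6 and 59.3 in CHX plus EPFL6 against 269.6, 316 and 271 in CHX, and 132, 152 and 158 in EPFL6 against 157, 168 and 174 in mock. The first pair stands apart and the second overlaps. Its term was -2.21 ± 0.35 (adjusted p = 0.017), and that of TAA1, the aminotransferase of the step before, was -0.85 ± 0.16 (adjusted p = 0.0299). YUC4 and TAA1 did not pass in 1 and 8 of 23 alternatives. The TAA1 libraries without CHX do not overlap, with EPFL6 below mock (-0.22 ± 0.11). YUC4 was higher in CHX than in mock (log2 change 0.77 ± 0.25), while TAA1 was lower (-0.65 ± 0.11). Of the 201 genes freed in the lower direction, CHX raised 121 and lowered 50 at adjusted p under 0.05. The shares over all genes tested were 40.9% and 38.3%. The interaction shares the CHX and mock libraries with this comparison, so nothing is read from these counts. AIL7, an AP2-type gene of organ growth, had a term of -1.0 ± 0.14 and passed in all 23 alternatives. The KNOX gene KNAT1, the BELL gene RPL and SPT, a bHLH factor of carpel and leaf growth, had terms of -1.05 ± 0.20, -0.68 ± 0.12 and -0.64 ± 0.12, and did not pass in 10, 7 and 9 of 23 alternatives. For 149 of the 201 genes the 95% interval of the EPFL6 change without CHX lay within 1.5-fold in either direction, and for the others a change of that size without CHX is not excluded by these data.

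The 75 genes freed in the higher direction had modest terms, with a median of 0.56 and 4 at 2-fold or more. AT5G12420, a WSD1-like O-acyltransferase gene, had 1879, 1553 and 1395 in CHX plus EPFL6 against 861, 746 and 633 in CHX, and 1077, 1129 and 1135 in EPFL6 against 1315, 1079.9 and 1207 in mock. Its term was 1.21 ± 0.18 (adjusted p = 0.0133). CYP71A22, a P450, had 3706, 3506 and 3943 in CHX plus EPFL6 against 2225, 1844 and 1868 in CHX, and 2307, 2206 and 2306 in EPFL6 against 2203, 2265 and 2171 in mock. Its term was 0.87 ± 0.11 (adjusted p = 0.00355). In both genes the first pair stands apart and the second overlaps.

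The other named genes of this direction were AT4G08780, a peroxidase (1.25 ± 0.20), the glycosyltransferase genes AT5G03490 (1.24 ± 0.23) and AT3G57380 (1.16 ± 0.21), TES, a kinesin of cell plate formation (0.99 ± 0.16), FMO, a flavin monooxygenase (0.96 ± 0.17), and AT4G00500, an alpha/beta-hydrolase (0.82 ± 0.15). AT4G08780 and AT4G00500 overlap other annotated genes. Of 23 alternatives, the interaction did not pass in 11 for AT4G00500, 9 for AT5G03490, 7 for FMO and 6 for AT3G57380. For AT4G08780 and TES it did not pass in 2 each. For all 75 the interval of the EPFL6 change without CHX lay within 1.5-fold, but 3 of the 75 passed with each library left out, against 41 of the 201 in the lower direction.

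**Figure D3:**
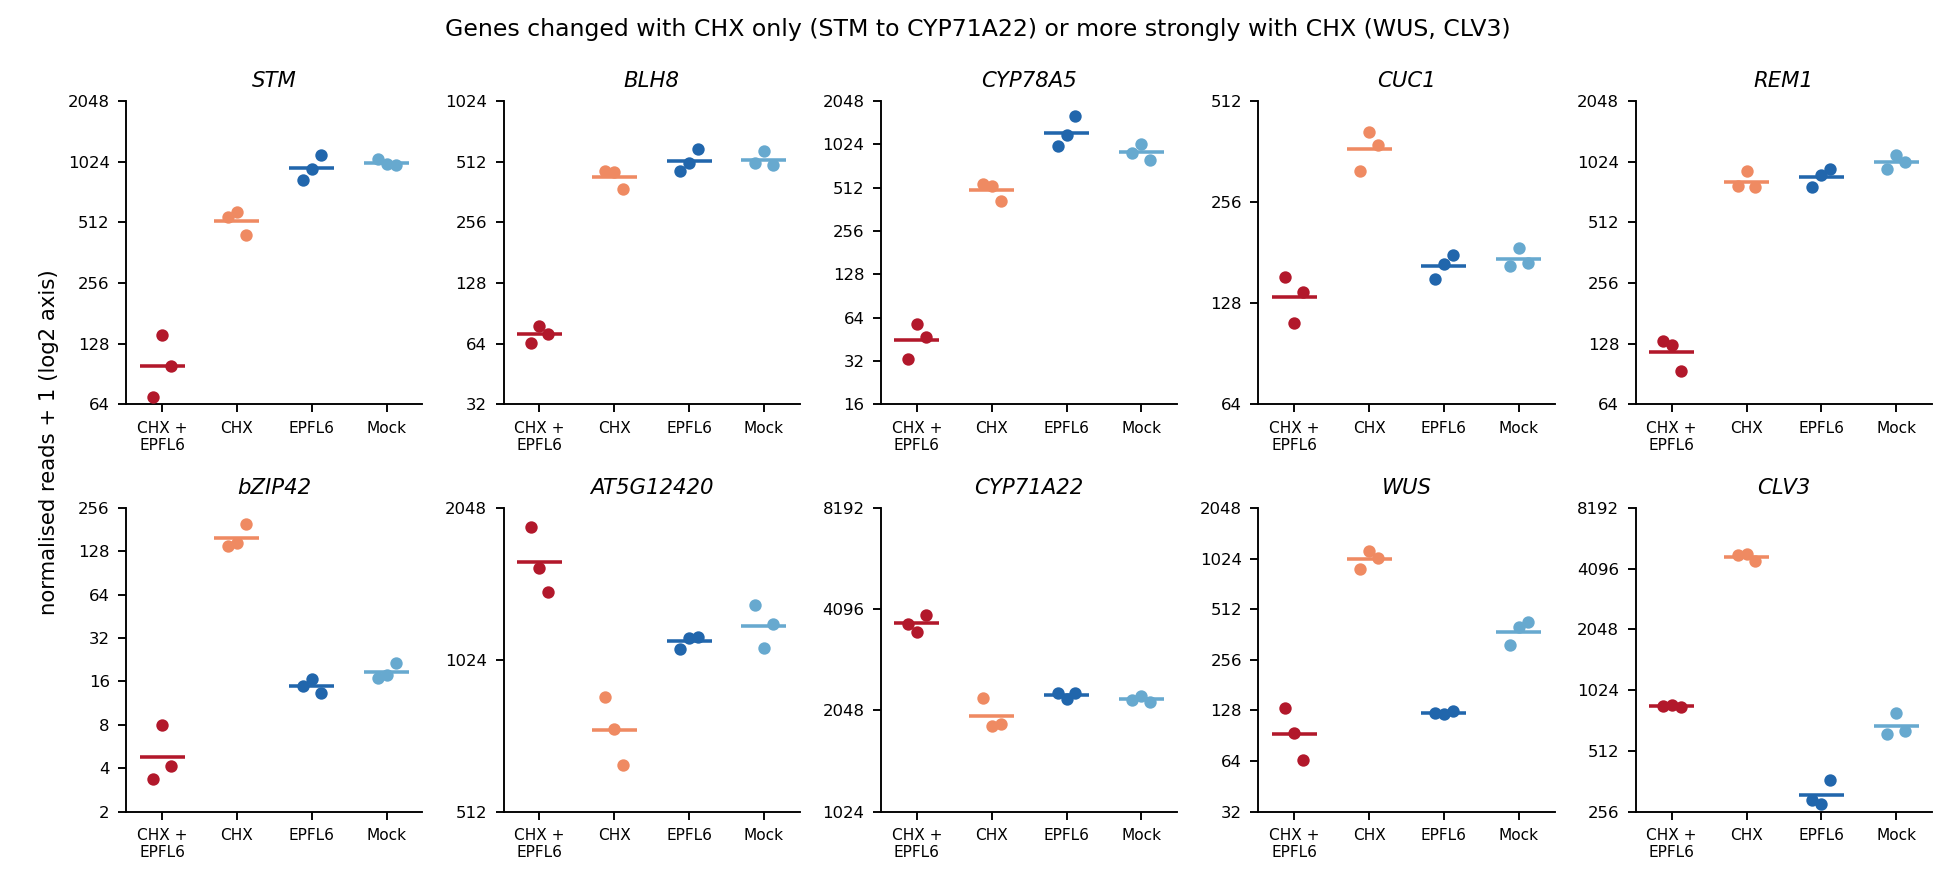
Normalised reads plus 1 (log2 axis) per library for genes in which EPFL6 passed with CHX and not without it (STM to CYP71A22) and for WUS and CLV3, which EPFL6 lowered in both settings. Points are libraries and lines are means of the log2 values. In STM, BLH8, CYP78A5 and REM1 the CHX plus EPFL6 libraries lie below all others. EPFL6 and mock overlap in STM, BLH8 and CYP78A5, and in REM1 EPFL6 lies just below mock.

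The 18 strengthened genes held the stem cell genes themselves. WUS, the homeobox factor of the organising centre, had 131, 92.6 and 63.4 in CHX plus EPFL6 against 891, 1141 and 1026 in CHX. It had 122, 121 and 126 in EPFL6 against 310.4, 399.9 and 426 in mock. EPFL6 lowered it by 3.45 ± 0.22 on the log2 scale with CHX and by 1.60 ± 0.22 without, where the adjusted p was 0.0898. Its levels with EPFL6 overlapped in the 2 settings, at 95.7 ± 34.0 with CHX and 123 ± 2.27 without (SD, n = 3 each), whereas the levels without the peptide stood apart. The term of -1.85 ± 0.31 (adjusted p = 0.0226) did not pass in 6 of 23 alternatives. Each of the 6 dropped a single library (mock 1, EPFL6 2, EPFL6 3, CHX 2, CHX 3 or CHX plus EPFL6 2), and the highest adjusted p among them was 0.0649.

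CLV3, whose transcript is present although the gene is mutated in this line, had 850.4, 867 and 841 in CHX plus EPFL6 against 4792, 4847 and 4486 in CHX. It had 289.9, 279 and 365 in EPFL6 against 618, 791 and 640.0 in mock. Its term was -1.33 ± 0.16 (adjusted p = 0.00306), and it passed in all 23 alternatives. Unlike WUS, CLV3 with both agents lay above mock.

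Of 9 Mei2-like RNA-binding genes tested, a family known in plants for its part in meristems and in the timing of leaf initiation, MCT1, TEL2 and MCT2 were also lowered in both settings and more strongly with CHX, and the other 6 did not pass. MCT1 had 9.45, 8.74 and 3.12 in CHX plus EPFL6 against 213, 169 and 196 in CHX, and 111, 111 and 135 in EPFL6 against 247, 241 and 211 in mock, with a term of -3.72 ± 0.42 (adjusted p = 0.00234). TEL2 had a term of -1.79 ± 0.33 (adjusted p = 0.0295) and MCT2 one of -1.18 ± 0.25 (adjusted p = 0.0495). These 2 passed without CHX as well, by -1.83 ± 0.23 (adjusted p = 0.0473) and -2.06 ± 0.18 (adjusted p = 0.00506). Their interaction terms are the least secure of the group, lost in 8 and 14 of 23 alternatives.

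ERL2, a receptor of the ERECTA family and so of the pathway itself, had 103, 87.4 and 111 in CHX plus EPFL6 against 446, 475 and 441 in CHX, and 667, 859.9 and 888 in EPFL6 against 1216, 1187 and 1147 in mock. The term was -1.61 ± 0.17 (adjusted p = 0.00137), and CHX plus EPFL6 lay lowest, CHX next, then EPFL6, with mock highest and no overlap between groups. ZPR3, a small protein that blocks HD-ZIP III factors, had a term of -1.92 ± 0.19, and AGO10, which holds back the microRNA that targets the same factors, one of -0.71 ± 0.11. The transcription factor genes AT1G26680 (B3), WRKY74 and AT1G80580 (integrase-type DNA-binding) had -2.32 ± 0.20, -1.81 ± 0.19 and -1.80 ± 0.25, and AT5G17080, a cysteine proteinase gene, -2.69 ± 0.40. ANT belongs here with changes of -1.64 ± 0.16 with CHX and -0.52 ± 0.16 without, and its interaction was lost in 12 of 23 alternatives.

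The 1 gene that passed without CHX and not with it was AT5G41710, annotated as a pseudogene. It had 52.0, 35.8 and 37.4 in CHX plus EPFL6 against 58.0, 54.9 and 46.3 in CHX, and 30.5, 26.9 and 27.8 in EPFL6 against 14.8, 14.8 and 14.3 in mock. The rise with EPFL6 without CHX was 0.91 ± 0.18 (adjusted p = 0.45), and the interaction term was -1.26 ± 0.26 (adjusted p = 0.0444). It passed in 11 of 23 alternatives. A larger set of 452 genes passed at unadjusted p without CHX and not with it (1.95% of genes tested), but for the others the difference between the settings did not pass.

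Of the EPFL genes mutated in the line, the 3 tested did not pass the interaction threshold. EPFL2 had 14966, 12972 and 13362 in CHX plus EPFL6 against 15311, 15911 and 19022 in CHX, and 3378, 1978 and 3505 in EPFL6 against 3114, 2254 and 3586 in mock. Its term was -0.24 ± 0.31 (adjusted p = 0.697), and those of EPFL1 and of CHAL, the endogenous EPFL6, were -0.39 ± 0.36 and -0.49 ± 0.52. The 95% intervals, -0.93 to 0.44 for EPFL2, -1.18 to 0.41 for EPFL1 and -1.65 to 0.67 for CHAL, leave room for a difference in either direction. EPFL4, listed as CLL2, reached a value of 10 in 1 library and was not tested. Reads of a mutated gene do not show which allele remains, so they do not test the labels.

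Of the 21 gene lists, 13 held at least 1 gene past the threshold. In all, 32 of 278 listed genes tested passed, 31 lower and 1 higher, against 1.14% lower and 0.366% higher over all genes. The lists were drawn up with earlier results known, so their shares are descriptions. The organ initiation, boundary and floral list had 4 of 14 lower with a median term of -0.97, the KNOX and BELL list 5 of 20 with a median of -0.05 (KNAT6, at -0.59 ± 0.12, being the fifth), and the Mei2-like list 3 of 9 with -0.31. Over all genes tested the median was 0.00. Of the 20 KNOX and BELL genes, 10 had terms below 0, and the highest term was 0.76. DESeq2 called 6 of them lower and 2 higher. Organ growth had 3 of 16 lower, stem cell regulators 3 of 15, leaf polarity 2 of 18 and CLE peptides 1 of 12. ERL2 was the only member of the receptor and MAP kinase list to pass, of 18. Left-out libraries moved the 32 listed genes to 20 without mock replicate 1, 21 without EPFL6 replicate 3 and 45 without CHX replicate 1. Without mock replicate 1, 2 KNOX and BELL genes passed and 1 gene each of the Mei2-like, stem cell, organ growth and leaf polarity lists. Without CHX replicate 1, 3 KNOX and BELL genes passed with higher terms beside 5 lower ones, and 5 organ growth genes passed. The organ initiation list kept at least 4 with each library left out. No member passed among 23 cytokinin, 10 gibberellin oxidase, 20 immediate early, 14 cell cycle, 10 stomatal and 8 EPF and EPFL genes tested in limma, nor by edgeR. At unadjusted p under 0.05 these lists had 10, 1, 3, 8, 2 and 1 genes in that order, against 19.2% of all genes tested. The shares of the cytokinin and cell cycle lists were thus well above that of all genes. Terms lay below 0 in 20, 6, 16, 13, 6 and 5 genes in the same order. DESeq2 called 6 cytokinin and 4 cell cycle genes, all lower. Without CHX replicate 1, limma called 4 cell cycle genes and 1 cytokinin gene lower, and it called 1 cytokinin gene with a pseudocount of 8 and with TMM scaling.

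Lists in which libraries spread widely call for a second look at their values. All 16 jasmonate genes had terms below 0, with a median of -1.37, and none passed in limma or edgeR. At unadjusted p under 0.05 there were 6, against 19.2% of all genes tested. DESeq2 called 1, and limma called 2 without CHX plus EPFL6 replicate 1. OPR3, an enzyme of jasmonate synthesis, had 22902, 7088 and 14267 in CHX plus EPFL6 against 36167, 42479.9 and 77201 in CHX, and 1804, 1793 and 3533 in EPFL6 against 2225, 1339 and 2953 in mock, with a term of -2.02 ± 0.66 (adjusted p = 0.135). The storage protein gene VSP2 had the lowest term of the list, -2.86 ± 1.49 (adjusted p = 0.325), with 36.9, 81.6 and 734 in EPFL6 alone. OPR3 and VSP2, like KNAT6, AT4G31615 and AT4G31650 above, were chosen after their values were seen. The median standard error of this list was 0.70, against 0.18 over all genes tested. The indole defence list had a median of 0.55 over 11 genes, 7 above 0, and CYP82C2 was its 1 gene past the threshold.

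**Figure D4:**
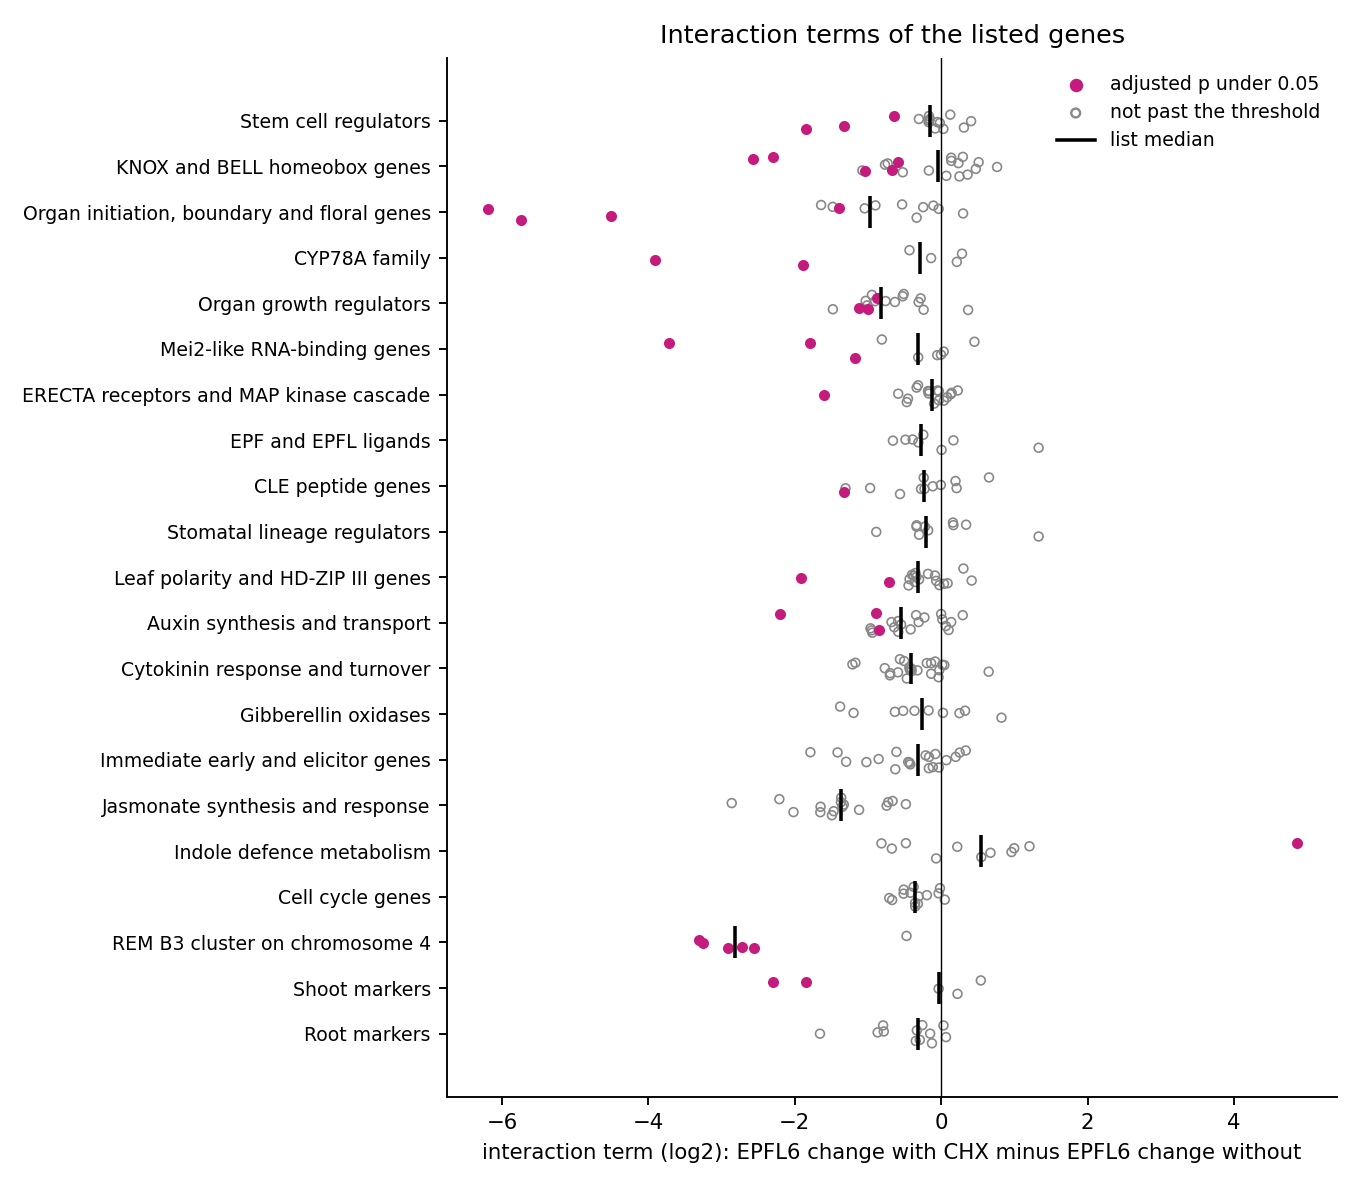
Interaction terms (log2) of the listed genes, 1 row per list, with the EPFL6 change without CHX subtracted from the change with CHX. Filled points passed at adjusted p under 0.05, open points did not, and bars are list medians. The REM cluster and the organ initiation list reach far below 0, the jasmonate genes lie below 0 without passing, and CYP82C2 is the 1 filled point above 0.

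The genes past the threshold started from different levels under CHX. Of the 264 lower genes, 155 were raised and 66 lowered by CHX against mock at adjusted p under 0.05, and in 146 the mean with both agents was below the mock mean. Of the 85 higher genes, 37 were raised and 33 lowered. Over all genes tested, CHX raised 40.9% and lowered 38.3% at the same threshold. CHX against mock shares the CHX and mock libraries with the interaction, so these counts are given side by side with it and nothing is read from their overlap.

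The number of genes past the threshold depended on single libraries. It was 975 when CHX replicate 1 was left out and 365 when CHX plus EPFL6 replicate 1 was. It fell below the full count with every other library left out, to 86 (mock 1), 154 (mock 2), 169 (mock 3), 201 (EPFL6 1), 125 (EPFL6 2), 118 (EPFL6 3), 152 (CHX 2), 137 (CHX 3), 122 (CHX plus EPFL6 2) and 114 (CHX plus EPFL6 3), where the number is that of the replicate. Lower terms outnumbered higher ones in each of the 12 fits. Of the 349 genes, 66 lower and 8 higher ones passed in all 12, and 53 and 7 in all 23 alternatives.

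**Figure D5:**
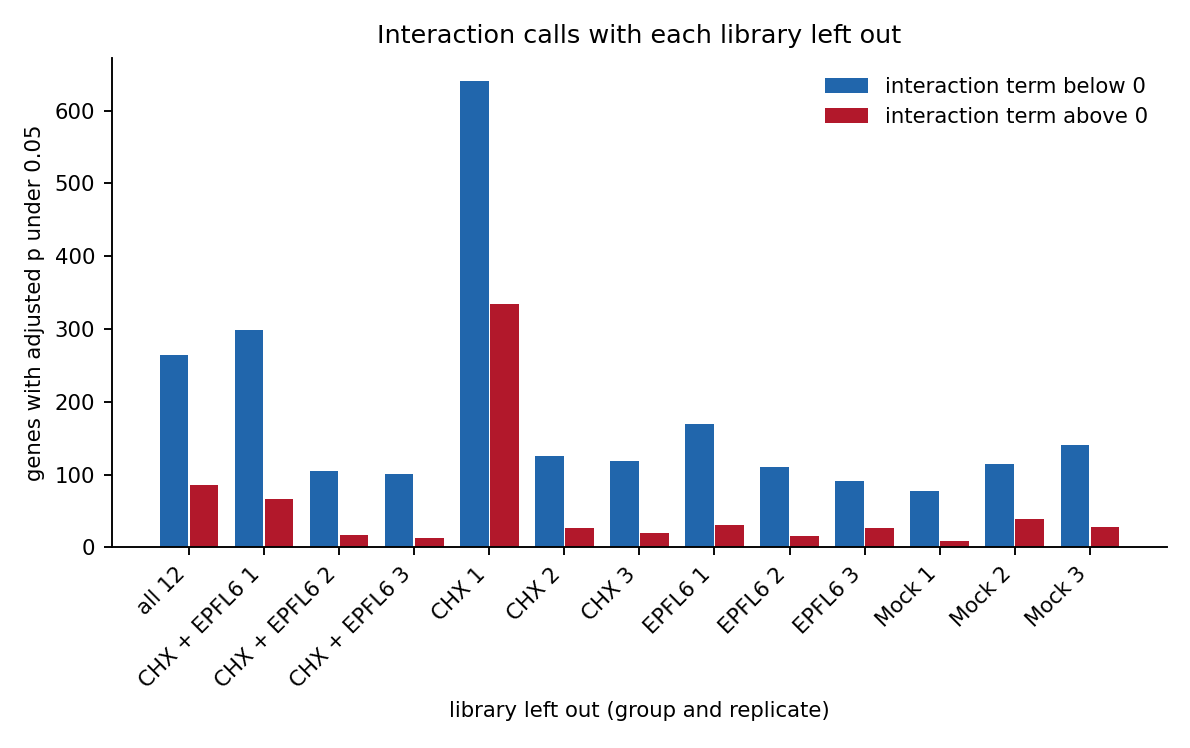
Number of genes with an interaction at adjusted p under 0.05 with all 12 libraries and with each library left out in turn, split by the sign of the term. Bars below 0 in sign (blue) exceed bars above 0 (red) in each fit, and the counts run from 86 genes without mock replicate 1 to 975 without CHX replicate 1.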

How the data were processed

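RNA of the 12 libraries was sequenced by the submitters, whose processing notes name STAR 2.7.6a, featureCounts 2.0.0, DESeq2 1.26.0 and the TAIR10 genome. The counting mode and strand setting are not given in the sources used here. The deposited values are a scaled signal per gene. Judged from the values, the authors divided reads by 1 size factor per library: once that factor is undone, 100% of entries are whole reads to a tolerance of 1e-06. Libraries held 40.2 to 106.6 units of 1e6 reads. Reads carry no molecular identifiers, so floors cover counting error only.

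limma 3.58.1 (R 4.3.3) was run on log2 values after adding 1, taking the 4 groups together, with an intensity trend and robust moderation. Adjusted p is Benjamini-Hochberg over 23225 genes, two-sided. Fold changes are on this scale, which understates changes of low genes. Checked on simulated data with 23092 genes, the interaction test recovered 16%, 52%, 86% and 90% of differences of 1.5, 2, 4 and 8-fold, with 6 false calls. The simulation held 50 changed genes per size, drew counts independently for each gene and gave no library a shared deviation. Recovery and false calls in the real libraries can therefore differ from these. edgeR 4.0.16 and DESeq2 1.42.0 on the recovered reads were alternatives, as were other pseudocounts, filters, scalings and variance models, a replicate block and each library left out. Gene names and coordinates are RefSeq TAIR10.1, which matched 26514 of 26702 loci. The 188 unmatched were kept under their locus names.

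The text names up to 8 genes per class and sign, by size of term at a mean value of at least 20, up to 4 genes of smallest p past the threshold per list, and WUS, CLV3, STM, EPFL1, EPFL2, EPFL4 and EPFL6. Members, lists and this rule were chosen with earlier results of these data known. One gene that the rule names is not reported here.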

Additional observations from a re-analysis of the deposited data

Results flagged for a closer look

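The EPFL6 response differed between the settings with and without CHX, by the test of the difference itself, with the term above 0 in 85 genes and below 0 in 264. In 54 of them the 2 EPFL6 changes ran in opposite directions at unadjusted p under 0.05. This count is a description, since the interaction that chose the genes is the difference of the same 2 changes. By adjusted p, 1 gene was reversed.

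The interaction terms of 4 genes stood out for a reversal. They were -6.20 for ESR1, -5.74 for UFO, -4.51 for DRNL and 4.86 for CYP82C2, on the log2 scale. In ESR1, UFO and DRNL the change without CHX did not pass by adjusted p, while in CYP82C2 both changes did.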

How the results depend on the processing

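The interaction term kept its sign for each of 63 named genes under each alternative that could test it. Among 1435 such values a call was lost in 209, and 36 genes stayed on their side of it throughout. DESeq2 called 547 higher and 981 lower genes for the interaction, with 119 reversed, 1349 freed, 34 lost and 59 listed genes, 2152 genes raised by EPFL6 with CHX, and 10 higher and 21 lower genes without CHX. Scaling by library size alone gave 34 higher, 154 freed and 0 lost, and dropping the trend and robust moderation gave 40 higher and 169 freed. Under either pseudocount, 0.5 or 8, 2 genes were lost. EPFL6 without CHX lowered 2 genes in edgeR and 2 with a value of 10 required in all 12 libraries. Placing genes by adjusted p gave 1 reversed, 3 strengthened and 0 lost. The cause of these shifts was not tested.

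With single libraries left out, higher genes ranged from 9 to 334 and lower ones from 77 to 641. Reversed genes ranged from 19 to 108, strengthened from 9 to 20, freed from 54 to 843, lost from 0 to 4 and listed genes from 20 to 45. EPFL6 with CHX raised 314 to 1901 and lowered 731 to 2108 genes, fewest in both directions without CHX replicate 3, and without CHX it raised 0 to 1 and lowered 1 to 4.

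Replicate numbers are not taken to pair the samples: the labels name no shared batch, and deviations of same-numbered libraries correlated at -0.22 to 0.42 over the group pairs, above 0.1 in every replicate only between CHX and EPFL6. With the replicate number as a block, 187 genes passed, 168 of them among the 349 (48.1%): 35 higher and 152 lower, 35 reversed, 137 freed and 0 lost, and EPFL6 without CHX lowered 1 gene. Of simulated 2-fold differences, 52% were recovered at this replication, so interactions of that size can be missed.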
